A study of Mus musculus with 8 samples.

Results

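The Wnt pathway genes are 44 genes that were picked by name: 18 Wnt ligands, 12 Frizzled and LRP receptors, 4 genes of β-catenin and the complex that destroys it, 4 transcription factors of the TCF/LEF family, and 6 secreted inhibitors or members of the R-spondin module. A peak was counted for a gene when the gene's symbol stood in the list of genes that the peak table gives for that peak. All 44 genes had at least 1 peak, out of 21490 genes in the table. Their peaks numbered 1002 of 328733, and after overlapping peaks of different libraries were merged they formed 235 of 87144 regions, 7 of which were assigned to 2 members.

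The assay was ATAC-seq, in which a transposase cuts open DNA and the tagged fragments are sequenced, and the cells were PIWIL2-eGFP-positive germ cells sorted from the testes of young mice. All mice carried the PIWIL2-eGFP transgene, in which the Piwil2 promoter drives GFP in germ cells from before birth through early spermatids, and all were given WIN 18,446, a blocker of retinoic acid (RA) synthesis, for 7 days from shortly after birth. The 0 h mice were collected then, without RA and without a vehicle injection, and the others 18, 48 or 120 h after an RA injection; the labels give the strain background as C57BL/6 x 129s4/SvJae, whereas the methods of the study give C57BL/6 x SJL. Each timepoint had 2 libraries, each from the testes of 1 mouse, and the timepoints stand for undifferentiated A (0 h), A1/A2 (18 h), A3 (48 h) and B spermatogonia (120 h). The mice grew older with the time after RA, so age and time after RA cannot be told apart.

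Wnt ligands are secreted proteins that bind a Frizzled receptor together with LRP5 or LRP6 on the receiving cell. Without a ligand, β-catenin is taken up by a complex of Axin, APC and kinases and degraded; with a ligand, it accumulates, enters the nucleus and acts with TCF/LEF factors on their target genes. R-spondins bind LGR4 and LGR5 and withdraw RNF43 and ZNRF3, which otherwise remove Frizzled from the cell surface. In the testis, Wnt5a and Wnt6 are known as signals that Sertoli cells send to spermatogonia.

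The libraries differed in signal as a whole. The 0 h libraries held 72215 and 69089 peaks and the 6 later libraries 24643 to 39551, although the authors' processing had brought each library to 1 common read number. Over the 15536 regions where all 8 libraries had a peak, the median summit value, which is the coverage by extended reads at the top of a peak, was 224/270 at 0 h, and 86 to 166 later. Of 12 germ cell markers, 8 had a peak within 1000 bp of the start in all 8 libraries, Ddx4, Dazl and Piwil2 among them. Nanos2 had no peak that near its start in any library, although the study reports accessible regions of Nanos2 at all timepoints. Per library the germ cell markers too were fewer later, with a peak within 1000 bp of the start at 11/11 of them at 0 h and at 8 to 10 later (summed height 3099/3445, then 1183 to 2507). Of 8 Sertoli cell markers 6 and 7 had such a peak at 0 h and 2 to 4 later (summed height 615 and 846, then 105 to 246), with Fshr at none in any library, and of 5 peritubular markers 5 and 5, then 1 to 3 (512 and 601, then 86 to 276). Of 5 macrophage markers, 2 and 1 had one at 0 h (208 and 166) and 0 later; Adgre1, Ptprc and Itgam had none in any library. Of 7 Leydig cell markers, 6, Star and Insl3 among them, had none in any library (summed height 74/77 at 0 h and 0 to 32 later), and of 4 endothelial markers 1 or 2 had one in each library, Pecam1 and Cdh5 never (185/266, then 38 to 94). Among these lists of other cell types, Wt1 (Sertoli), Acta2 (peritubular) and Kdr (endothelial) had such a peak in all 8 libraries. The part of other cell types in the results that follow was not tested, and in sorted bulk samples fewer cells of a type and less signal per cell cannot be told apart.

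The first question was which Wnt pathway genes were accessible at which stage. A gene was taken as accessible at a timepoint when it had a peak in both libraries. Such a peak could lie inside the gene or upstream or downstream of it, so the start itself need not have held one. Among the ligands, Wnt1, Wnt5a, Wnt8b and Wnt10a were accessible at all 4 timepoints without a peak within 1000 bp of the start in any library. Of the 44 genes, 31 were accessible at all 4 timepoints (70.5%), beside 72.8% of the 20673 genes accessible at any timepoint. At 0 h only, 4 members were accessible (9.09%), beside 12.9% of all genes, and these were Wnt4, Wnt7a, Wnt7b and Wnt11. The members thus stood close to the background in both classes. The roles did not stand alike: 7 of 18 ligands were accessible at all 4 timepoints, against 11 of 12 receptors, 4 of 4 genes of β-catenin and its destruction complex, 3 of 4 TCF/LEF factors, and 6 of 6 inhibitors and R-spondin module genes.

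Most of the members that missed a timepoint were ligands. Wnt4, which is known for its role in the development of the female gonad, had 3 and 1 peaks at 0 h and 0 in all 6 later libraries. Wnt11, a ligand known for signalling apart from β-catenin, had 4 and 4 peaks at 0 h, while 48 h replicate 1 had 1 and 120 h replicate 1 had 2. Wnt7a had 4 and 3 peaks at 0 h, and later only the 3 in 120 h replicate 1. Wnt7b had 4 and 4 peaks at 0 h, while 18 h replicate 1 had 1 and 120 h replicate 1 had 4. For these last 3 genes the later peaks lay mostly in 120 h replicate 1, a library with 39551 peaks beside 24643 in 120 h replicate 2, and without replicate 2 the class held 1 gene. The other ligands that missed a timepoint were Wnt2b (0 and 120 h), Wnt3 (0 and 18 h), Wnt2 and Wnt3a (absent at 48 h), Wnt9a and Wnt16 (absent at 120 h) and Wnt9b (absent at 18 h). Among the other roles, Fzd6 missed 18 h and Tcf7, a TCF factor best known in T cells, missed 48 h.

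**Figure D1:**
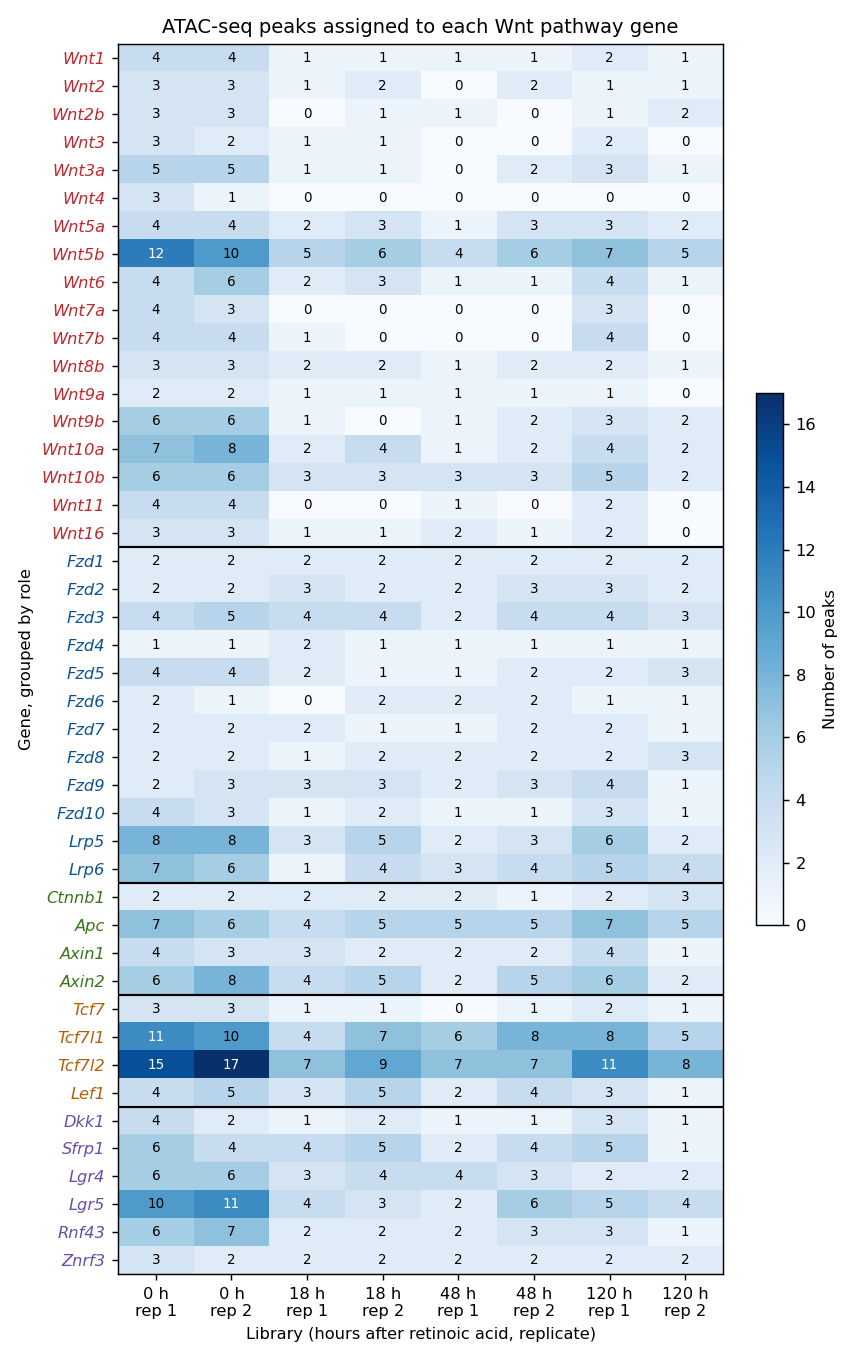
Number of ATAC-seq peaks assigned to each of the 44 Wnt pathway genes (rows, grouped by role with coloured names: ligands red, receptors blue, β-catenin and destruction complex green, TCF/LEF factors orange, inhibitors and R-spondin module purple) in each of the 8 libraries (columns, hours after RA and replicate). The highest number is 17, for Tcf7l2 in 0 h replicate 2, and Wnt4 is at 0 in all 6 later libraries.

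The peak numbers of most members were higher at 0 h. For 23 of 44 members (52.3%) both 0 h libraries held more peaks than each later library, beside 36.9% of the 21490 genes; the reverse was found for 0 members and 0.0698% of all genes. Of the ligands 14 of 18 were so separated, against 3 of 12 receptors (Fzd5, Lrp5 and Lrp6), 0 of 4 destruction complex genes, 3 of 4 TCF/LEF factors and 3 of 6 inhibitors and R-spondin module genes. Ligand genes had on average 4.36 peaks per library at 0 h and 1.47, 1.22 and 1.92 at 18, 48 and 120 h, whereas receptor genes had 3.29 and then 2.21, 2.08 and 2.46. Tcf7l2, a TCF factor gene, had the most peaks of all members, with 15/17 at 0 h and 7 to 11 later. Wnt5b, a ligand known for signalling apart from β-catenin, had 12/10 at 0 h and 4 to 7 later. Lgr5, an R-spondin receptor and stem cell marker of the gut, had 10/11 at 0 h and 2 to 6 later. Fzd1 stood at 2 peaks in each of the 8 libraries.

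The exact permutation test of 2 against 6 libraries (two-sided) cannot go below 0.0357, a value that 20 of 44 members (45.5%) and 34.7% of all genes reached. After Benjamini-Hochberg adjustment over all genes the lowest p of this exact test was 0.103, so that no gene passed 0.05. The separation was also not present when each library was cut to its 24643 highest peaks, the number in the smallest library. Then 0 of 44 members and 2.5% of all genes had more peaks in both 0 h libraries than in every later one. Such a cut takes away the difference in total peak number by construction. On that footing the members had 80 and 76 peaks at 0 h and 75 to 97 later, and the ligands 24/25 at 0 h and 17 to 32 later. On that footing 1 member, Wnt7a, was accessible at 0 h only, in place of 4.

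The starts of the genes set ligands and receptors apart in nearly every library. A peak within 1000 bp of the start was found for 12 and 13 of the 18 ligands at 0 h, and later for 2, 4, 2, 5, 10 and 3 of them (18 h, 48 h and 120 h, replicate 1 before 2). For the receptors the numbers were 12 and 12 of 12 at 0 h and 9, 12, 11, 11, 12 and 11 later. Hence the ligand starts were fewest in 18 h and 48 h replicate 1, and 120 h replicate 1 stood near the 0 h libraries. With the same number of highest peaks in every library, ligand starts with a peak numbered 2/4 at 0 h and 2 to 4 later, and receptor starts 10/10 at 0 h and 9 to 11 later. The gap between the roles was there at every timepoint on that footing, and the change of the ligands over time was not. The cut drops the lowest peaks and takes the most from the 0 h libraries, where ligand start peaks were low. It therefore cannot decide whether the ligand starts changed over time.

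**Figure D2:**
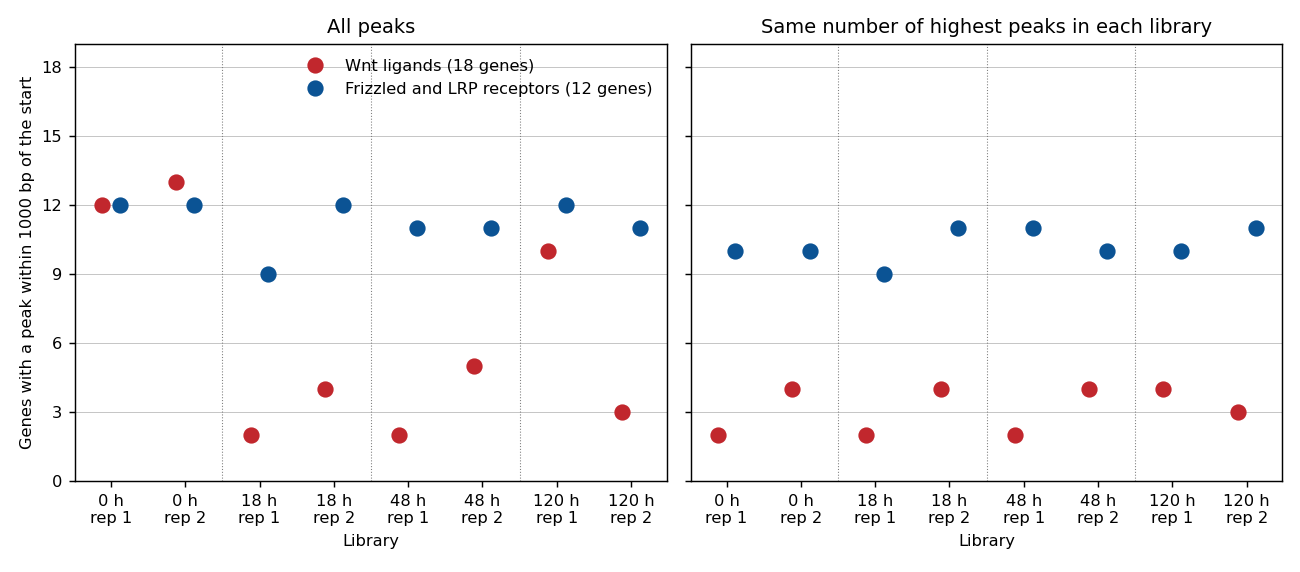
Number of ligand genes (red, of 18) and receptor genes (blue, of 12) with a peak within 1000 bp of the start in each library, from all peaks (left) and from the 24643 highest peaks of each library (right). On the left the ligands drop from 12/13 at 0 h to between 2 and 10 later; on the right they lie between 2 and 4 in all 8 libraries, and the receptors between 9 and 11.

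Over all roles, 36 members had a start peak in both 0 h libraries, and 17 of them had one in all 6 later libraries, beside 67.7% of the 14816 genes of that kind in the whole table. By role these were 0 of 12 ligands, 9 of 12 receptors, 4 of 4 destruction complex genes, 2 of 3 TCF/LEF factors and 2 of 5 inhibitors and R-spondin module genes. A peak was counted here by the distance of its own summit, so that Fzd10, whose start peaks fall into a pair of separate regions, is among the 17, and Lgr5 is not, since the summit of its peak in 0 h replicate 1 lay 1220 bp from the start. Only Wnt4 and Wnt9a had a start peak in both 0 h libraries and in no later one, beside 6.71% of all such genes.

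The heights of the ligand start peaks were low also at 0 h. Summit values are written as replicate 1/replicate 2 of a timepoint. At Wnt9a (chr11:59306521-59307226) the summit value was 48/81 at 0 h, and no later library had a peak. At Wnt4 (chr4:137276758-137277206) it was 50 and 57, again with none later. At Wnt11 (chr7:98838735-98839284, in an exon) it was 85/76 at 0 h and 73 in 120 h replicate 1, and a second region 797 bp upstream had 88/74 at 0 h and no later peak. The lowest summit value of any peak in a library was 24 or 25.

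The ligand start with a peak in most libraries was that of Wnt16 (chr6:22287940-22289109), with 98/166 at 0 h, 49/74 at 18 h, 35/96 at 48 h, and 43 and no peak at 120 h. Wnt3a, a canonical ligand, had a peak at its start (chr11:59290944-59291419) of 72/116 at 0 h, 50/70 at 18 h, then 61 (48 h replicate 2) and 55 (120 h replicate 2). Wnt9b had 118/146 at 0 h, none at 18 h, 53/54 at 48 h, then 66/51 at 120 h (chr11:103749394-103750280). Each of these 3 ligand starts was highest in a 0 h library, as was a second start region of Wnt3a with 92/87 at 0 h and 70 in 120 h replicate 1.

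The remaining ligand starts had fewer peaks. Wnt3 had 107/150 at 0 h, then 61 (18 h replicate 2) and 54 (120 h replicate 1). Wnt2 had 104/84 at 0 h, then 52 (18 h replicate 2), 41 (48 h replicate 2) and 31 (120 h replicate 1). Wnt2b had 68/68 at 0 h and 55 in 120 h replicate 2. These values were highest at 0 h in each gene. Wnt5b had a pair of start regions, 1 with 46/57 at 0 h and 53 in 48 h replicate 2, the other with 58/61 at 0 h and 45 in 120 h replicate 1. Wnt7a had 74/74 at 0 h and 62 in 120 h replicate 1, and Wnt7b 51/48 at 0 h and 80 in that same later library. At Wnt6 the single start peak was in 0 h replicate 2 (77), and at Wnt10b in 120 h replicate 1 (61). Wnt7b and Wnt10b were thus the ligand genes with their highest start value after RA. Wnt1, Wnt5a, Wnt8b and Wnt10a had no start peak in any library.

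Of the ligand regions, 8 of 86 had a peak in all 8 libraries, and none of these lay at the start of a ligand gene. A region 3425 bp upstream of Wnt1 and 8250 bp upstream of Wnt10b (chr15:98785882-98786645), genes that lie next to each other, had 263/347 at 0 h, 102/149 at 18 h, 53/130 at 48 h, then 201/56 at 120 h. Its 120 h replicates thus lay far apart. In an intron of Wnt5b (chr6:119450524-119451035) the values were 455/549 at 0 h, 256/239 at 18 h, 183/258 at 48 h, then 333/135 at 120 h. Another region of Wnt5b, with 259/269 at 0 h, lay within 1000 bp of the start of Fbxl14, and that of Wnt10b at 14854 bp lay within 1000 bp of the start of Arf3.

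All 12 receptor genes had a start peak in both 0 h libraries. Fzd4, the receptor that also binds Norrin, had summit values of 439/476 at 0 h, 134/209 at 18 h, 179/164 at 48 h, then 376/275 at 120 h (chr7:89403573-89404985). Fzd7, known from stem cells of the gut, had 325/375 at 0 h, 120/145 at 18 h, 120/138 at 48 h, then 244/202 at 120 h (chr1:59481646-59482729). In both genes the 0 h values lay above all later ones, and the 120 h values above those of 18 and 48 h. Fzd1 had 229/281 at 0 h, 142/203 at 18 h, 140/151 at 48 h, then 226/133 at 120 h, so its 120 h values spanned those of 18 and 48 h. The co-receptor gene Lrp6 had a start peak of 134/206 at 0 h, none and 84 at 18 h, 59/66 at 48 h, then 110/99 at 120 h (chr6:134566176-134567530). That of Lrp5 was weaker, with 71/67 at 0 h and later a single value of 52, in 120 h replicate 1 (chr19:3685785-3686300, in an intron), and a second region 156 bp upstream of the start had 56/59 at 0 h, then 55 (18 h replicate 2) and 51 (120 h replicate 1). Fzd3 and Fzd5 and the higher start region of Fzd8 had 221 to 392 at 0 h and 80 to 239 later. Fzd6, with 79/112 at 0 h and 42 to 66 later, lacked its start peak in 18 h replicate 1.

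Some receptor genes had a second start region that was weaker or less often present. That of Fzd8, in its exon, had 121/124 at 0 h, none and 52 at 18 h, 39/45 at 48 h, then 70/67 at 120 h. That of Fzd7, also exonic, had 111/93 at 0 h, then 61 (18 h replicate 1), 71 (48 h replicate 2) and 65 (120 h replicate 1). In both genes the second region was highest at 0 h, as the first was. Fzd10 had its higher start region 306 bp upstream, with 126/121 at 0 h, none and 56 at 18 h, none at 48 h, then 64/72 at 120 h. The other, in the exon of Fzd10, had 60/67 at 0 h and 48 to 61 in the 5 later libraries with a peak. Both regions also lay within 1000 bp of the start of 5930412G12Rik. The upstream region of Fzd10 was thus higher at 0 h and missing in 3 later libraries, while the exonic one was nearly level and missing in 1.

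At Ctnnb1, which encodes β-catenin, the region over the start (chr9:120932845-120934431) had 204/227 at 0 h, 84/149 at 18 h, 109/124 at 48 h, then 253/230 at 120 h. Of the 4 start regions of this role that every library shared, it alone had both 120 h values above both 0 h values. Axin1, the scaffold of the destruction complex, had among the highest start peaks, with 709/831 at 0 h, 210/313 at 18 h, 212/250 at 48 h, then 578/449 at 120 h. Axin2, a scaffold and a known target gene of the pathway, had 217/230 at 0 h, 65/134 at 18 h, 88/90 at 48 h, then 155/139 at 120 h. Apc had 242/320 at 0 h, 118/140 at 18 h, 126/152 at 48 h, then 270/213 at 120 h.

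Of the transcription factor genes, Tcf7l2 had at its start (chr19:55741241-55742031) 225/329 at 0 h, 61/91 at 18 h, 54/75 at 48 h, then 200/138 at 120 h. Tcf7l1, known mainly as a repressor of Wnt target genes, had 227/246 at 0 h, 85/90 at 18 h, 70/105 at 48 h, then 180/135 at 120 h. In both, the 120 h values lay between those of 0 h and those of 18 and 48 h, without overlap. A second start region of Tcf7l1 had 89/77 at 0 h, then 46 (18 h replicate 2), 63 (48 h replicate 2) and 59 (120 h replicate 1). Tcf7 had 79/86 at its start at 0 h and later 56 in 18 h replicate 2 alone, and a region 757 bp upstream had 70/168 at 0 h, none at 18 h, none and 63 at 48 h, then 94/85 at 120 h. The upstream region of Tcf7 was thus back in both libraries at 120 h, between its 0 h values, and the start was not. Lef1 had no peak within 1000 bp of its start; its nearest (chr3:131111910-131112670, in an intron, 1561 bp from the start) had 155/244 at 0 h, 52/51 at 18 h, none and 54 at 48 h, and 58 and none at 120 h.

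In the R-spondin module, Lgr4 had a start peak of 826/828 at 0 h, 263/356 at 18 h, 233/262 at 48 h, then 612/439 at 120 h. Znrf3, a ubiquitin ligase that removes Frizzled, had 228/483 at 0 h, 126/202 at 18 h, 160/181 at 48 h, then 452/338 at 120 h (chr11:5444618-5445539). The 2 values of Znrf3 at 0 h lay further apart than those of 120 h. A second start region of Znrf3, 975 bp inside the gene, had 101/99 at 0 h, none at 18 h, 68/71 at 48 h and none at 120 h. Rnf43, the related ligase, had 144/174 at 0 h, 52/67 at 18 h, 42/49 at 48 h, and 80 and none at 120 h. Sfrp1, a secreted protein that binds Wnt ligands, had 165/199 at 0 h and 48 to 92 in the 5 later libraries with a peak. Dkk1, an inhibitor that binds LRP5 and LRP6, had 97/87 at 0 h and 31 to 50 later, with no peak in 120 h replicate 2.

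**Figure D3:**
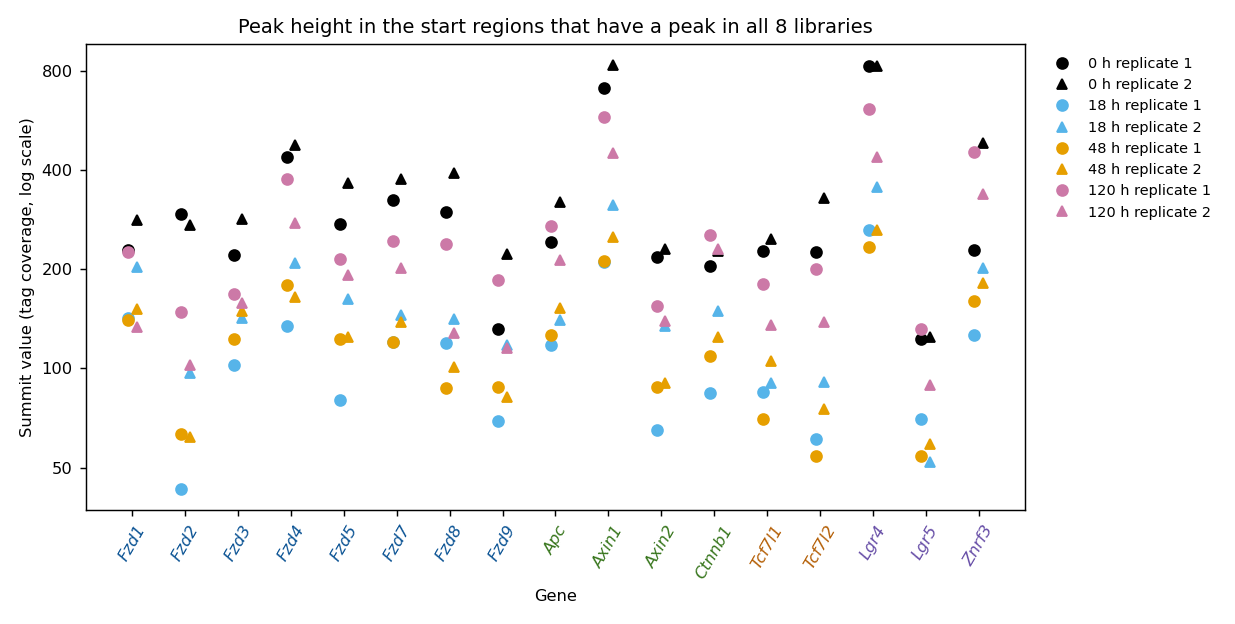
Summit value (log scale) of the 17 start regions that all 8 libraries share (1 for each gene, the highest), where a region counts as a start region when 1 or more of its summits lie within 1000 bp of the start (Lgr5 is shown and Fzd10 is not), 1 symbol per library (colour for hours after RA, circle for replicate 1 and triangle for replicate 2), with gene names coloured by role. For Ctnnb1 the 120 h values of 253 and 230 lie above the 0 h values of 204 and 227, while for Fzd4 the 0 h values of 439 and 476 lie above all later ones.

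The change of peak height was tested with limma on log2 summit values in all 15536 regions with a peak in every library, 39 of which were Wnt regions, with Benjamini-Hochberg adjustment over all of them. On the values as deposited, 35 of 39 Wnt regions fell from 0 h to 18 h (median log2 change -1.23, that of all regions -1.23), 37 fell from 0 h to 48 h (-1.33, all -1.36) and 14 from 0 h to 120 h (-0.64, all -0.75), and no Wnt region rose. Leaving out 0 h replicate 2 brought the count of 35 to 22 and that of 14 to 7; leaving out 18 h replicate 1 brought the first to 16, and leaving out 120 h replicate 2 the last to 4. In all regions 92.3%, 93.3% and 44.8% fell and 0.296%, 0.328% and 0.882% rose in these comparisons, so the Wnt regions stood near the background. From 48 h to 120 h, 10 Wnt regions rose and 0 fell (median 0.72, all 0.56), beside 23.7% and 0.18% of all regions, and the start of Tcf7l2 rose the most, by 1.38 ± 0.37 (log2, SE; adjusted p = 0.00748). This count was 0 when either 48 h library was left out, 1 when 120 h replicate 1 was, and 23 when 120 h replicate 2 was. Between 18 h and 48 h limma called no Wnt region by the adjusted p, beside 0.00644% of all regions that fell and 0 that rose. At an unadjusted p under 0.05, 0 Wnt regions passed, beside 255 lower and 14 higher of all 15536 regions.

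The deposited values carry the difference in signal between libraries, so the fit was repeated with each library centred on its median log2 value, where a change is read relative to the middle region of its library. On this scale no Wnt region was called at 18 h against 0 h by the adjusted p, beside 0.225% lower and 1.25% higher of all regions. At an unadjusted p under 0.05, 3 of 39 Wnt regions were lower there and 4 higher, beside 776 and 1289 of all 15536. None was called at 48 h against 18 h, beside 0% of all regions in either direction. Unadjusted, 0 Wnt regions passed there, beside 489 lower and 428 higher of all 15536. By the adjusted p, 1 was lower and 1 higher at 48 h against 0 h, beside 1.51% and 3.26%. At 120 h against 0 h 2 were lower and 9 higher (5.13% and 23.1%), beside 15.8% and 23% of all regions, and the median log2 change was 0.25 for the Wnt regions and 0.14 for all. At 120 h against 48 h 1 was lower and 3 higher, beside 7.45% and 9.47%. The share of higher calls at 120 h against 0 h was that of the background.

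The direction at 120 h went with the position of a region. Of the 25 Wnt regions within 1000 bp of the start of any gene, 8 rose relative to the median and 0 fell from 0 h to 120 h (median log2 change 0.33), beside 29.6% and 8.42% of the 8971 such regions in the genome (median 0.32). Of the 14 Wnt regions farther from any start, 1 rose and 2 fell (median -0.38), beside 13.8% and 25.8% of 6565 (median -0.18). Of 26 Wnt regions with a CpG island, 8 rose and 0 fell, beside 29.8% and 6.88% of the 9102 such regions, and of 13 without one, 1 rose and 2 fell, beside 13.2% and 28.3% of 6434. The Wnt regions stood near the background in each of these classes.

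Relative to the median, the largest rise from 0 h to 120 h was at the start of Znrf3, by 1.13 ± 0.26 (log2, SE; limma adjusted p = 0.00549), followed by the start of Ctnnb1, by 1.06 ± 0.23 (adjusted p = 0.00463). Both were also above 0 on the deposited scale, at 0.24 and 0.16, where neither passed the test. The starts of Lgr5 (0.70 ± 0.25), Apc (0.68 ± 0.20, shared with the start of Gm10548) and Fzd9 (0.66 ± 0.24) and a region 497 bp inside Fzd2 (0.70 ± 0.23), in its exon, rose relative to the median as well (limma adjusted p = 0.038, 0.0185, 0.0399 and 0.0269), but on the deposited scale their changes were below 0, at -0.19, -0.21, -0.23 and -0.19. The start of Lgr5 had 123/124 at 0 h, 70/52 at 18 h, 54/59 at 48 h, then 132/89 at 120 h, and that of Fzd9 had 132/222, 69/118, 88/82 and 185/115 at these times. The highest summit of the Lgr5 region lay 1188 or 1220 bp from the start in 5 libraries and 260 to 420 bp in the other 3. The exon region of Fzd2 had 140/164, 54/103, 61/90 and 169/105. In all 3, the 120 h values overlapped those of 0 h. Fzd2 held a second start region, 15 bp upstream of the start (chr11:102604033-102604658), with 293/273 at 0 h, 43/97 at 18 h, 63/62 at 48 h, then 148/102 at 120 h. That region did not go with its neighbour: its change relative to the median was -0.31 ± 0.26 (adjusted p = 0.355), and on the deposited scale it fell by 1.2 (adjusted p = 0.00435). A test of the difference between these regions was not made. Without 0 h replicate 1 the start of Znrf3 was at 0.72 (adjusted p = 0.061), and without 120 h replicate 2 that of Ctnnb1 was at 0.80 (adjusted p = 0.0522); the count of 11 called Wnt regions was 3 without 0 h replicate 1, without 120 h replicate 2, and with quantile normalization. The calls at Lgr5 and Fzd2 were lost without any 1 of the 0 h and 120 h libraries, that at Fzd9 without 0 h replicate 1 or either 120 h library, and that at Apc without 0 h replicate 1 or 120 h replicate 2. These 4 calls were also lost once a trend with GC content was removed (adjusted p = 0.148, 0.19, 0.205 and 0.0868 in limma, in the order Lgr5, Fzd2, Fzd9 and Apc).

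The 3 regions that rose away from the members' starts lay near the start of another gene or between genes. The region assigned to Lrp5 at 110628 bp (0.85 ± 0.21, limma adjusted p = 0.00709) lay within 1000 bp of the start of Ppp6r3 and had 670/763 at 0 h, 242/358 at 18 h, 257/282 at 48 h, then 777/625 at 120 h, and that assigned to Rnf43 at 73745 bp (0.73 ± 0.22, adjusted p = 0.0186) within 1000 bp of the start of Supt4a, with 240/297, 118/156, 94/157 and 273/210 at these times. The third lay between genes, downstream of Lef1 (115129 bp from its start, chr3:131225421-131225901), with 76/112 at 0 h, 69/65 at 18 h, 58/80 at 48 h, then 106/66 at 120 h. On the centred scale it rose at 48 h by 0.96 ± 0.22 (adjusted p = 0.0247) and at 120 h by 0.75 ± 0.22 (adjusted p = 0.017), and on the deposited scale it was below 0 at both times, at -0.44 and -0.14. On the deposited scale that of Lrp5 was at -0.04 and that of Rnf43 at -0.16 at 120 h. At 120 h the call at Lrp5 was lost without 120 h replicate 2, that at Rnf43 without either 0 h library or 120 h replicate 2, and that at Lef1 without 0 h replicate 1 or either 120 h library. The 48 h call at Lef1 was lost without 0 h replicate 1 or either 48 h library.

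The regions that fell relative to the median lay away from gene starts. In an intron of Tcf7l2, 45742 bp from the start (chr19:55787387-55787915), the summit value was 170/278 at 0 h, 55/76 at 18 h, 47/64 at 48 h, then 73/58 at 120 h. No later value thus lay above 76, while the start of the same gene stood at 200/138 at 120 h, and the region fell relative to the median by 0.85 ± 0.22 at 120 h (limma adjusted p = 0.00999). A region 6016 bp upstream of Wnt8b (chr19:44487196-44487871), between genes, had 340/320 at 0 h, 89/125 at 18 h, 61/85 at 48 h, then 138/83 at 120 h. It fell relative to the median by 0.80 ± 0.21 at 48 h (adjusted p = 0.0427) and by 0.73 ± 0.21 at 120 h (adjusted p = 0.0152), and the 48 h call was lost without any 1 of the libraries of 0, 18 and 48 h. Both fell on the deposited scale too, by 1.74 and 1.62 at 120 h. Without 0 h replicate 2 the Tcf7l2 region was at -0.63 (adjusted p = 0.0834), without 120 h replicate 1 at -0.69 (adjusted p = 0.0554), and the Wnt8b region was at -0.55 (adjusted p = 0.124) without 0 h replicate 1 and at -0.69 (adjusted p = 0.0784) without 120 h replicate 2.

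From 48 h to 120 h, the starts of Tcf7l2 (0.88 ± 0.21, limma adjusted p = 0.0221) and Axin1 (0.64 ± 0.20, adjusted p = 0.0449) rose relative to the median. So did the Ppp6r3 start region assigned to Lrp5 (0.87 ± 0.21, adjusted p = 0.0225). Over the 16 alternatives run, no scaling among them, the change at Axin1 ran from 0.14 to 1.15. That at Tcf7l2 ran from 0.74 to 1.38, and that at the Lrp5 region from 0.31 to 1.37. A region downstream of Wnt5a, 29471 bp from its start (chr14:28534759-28535225), fell by 0.99 ± 0.28 (adjusted p = 0.0344). Its summit value was 266/204 at 0 h, 126/124 at 18 h, 96/120 at 48 h, then 125/47 at 120 h, so the fall rested on 120 h replicate 2, without which it was -0.61 (adjusted p = 0.232). None of these 4 calls stood when either 48 h library, or 120 h replicate 2, was left out.

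**Figure D4:**
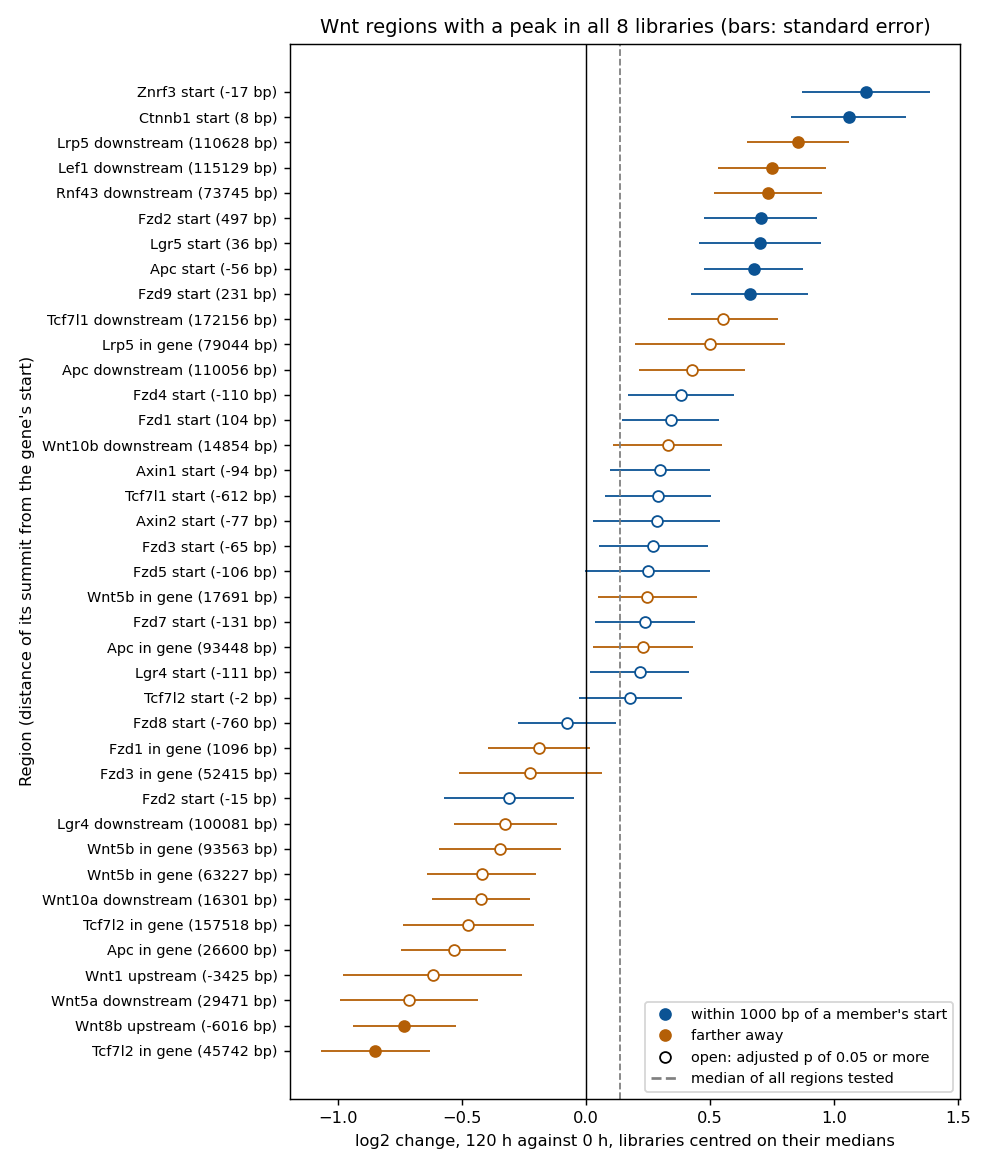
Change of the summit value from 0 h to 120 h (log2, libraries centred on their medians, bars are standard errors) in the 39 Wnt regions with a peak in all 8 libraries, named by gene and distance from its start. Filled symbols passed an adjusted p of 0.05 (9 higher, 2 lower), blue regions lie within 1000 bp of a member's start, and the dashed line is the median of all regions, 0.14. The start regions lie mostly to the right, led by Znrf3 at 1.13, and the Tcf7l2 intron region is lowest at -0.85.

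Regions present at one stage and not at another gave a similar account. Of 172 Wnt regions with a peak in both 0 h libraries, 35 (20.3%) had no peak in any later library, beside 25.7% of all regions of that kind with an assigned gene, and 39 (22.7%) had one in all 6, beside 32.5%. The count of 35 depended on the number of peaks kept: with the same number of highest peaks in every library, 0 of 64 such Wnt regions had no later peak, beside 3.26% of all. From all peaks and by role, 18 of 62 ligand regions, 2 of 36 receptor regions, 1 of 16 destruction complex regions, 5 of 31 TCF/LEF regions and 9 of 27 regions of inhibitors and the R-spondin module had no later peak. By the lower of the 2 values at 0 h, the highest were an intron region of Lgr4 with 103/113 at 0 h (chr2:109943123-109943536), an intron region of Tcf7l2 with 174 and 96 (chr19:55838587-55839105), one downstream of Wnt10a with 95 and 99 (chr1:74809104-74809396) and an intron region of Wnt5b with 147 and 94 (chr6:119448410-119448962). A further pair, both in introns of Tcf7l2, had 91 and 82, and 91 and 81. Next in this order came a region upstream of Wnt1 and Wnt10b with 79 and 117, whose mean lay above that of the Wnt10a region.

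Regions without a 0 h peak but with one in both libraries of a later timepoint numbered 3, beside 1.58% of all regions with an assigned gene. All 3 were intronic and reached both libraries at 120 h. In Lrp6, 4609 bp from the start (chr6:134562126-134562467), 18 h replicate 1 had a summit value of 40 and 48 h replicate 2 had 53, and the 120 h libraries had 113/66. In Tcf7l2, 150414 bp from the start (chr19:55892055-55892434), 18 h replicate 2 had 60 and 48 h replicate 2 had 57, and the 120 h libraries had 76/55. A second region of Tcf7l2, at 20206 bp, had 50/45 at 120 h and no other peak.

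Tcf7l2 thus held regions of each kind within 1 gene: all 5 of the TCF/LEF regions with a peak in both 0 h libraries and none later, 2 regions found only later, and a region 157518 bp from the start (chr19:55899041-55899574) with a peak in every library, with 518/661 at 0 h, 241/228 at 18 h, 136/242 at 48 h, then 356/145 at 120 h. On the deposited scale that last region also fell from 0 h to 120 h (log2 change -1.36, limma adjusted p = 0.00113).

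**Figure D5:**
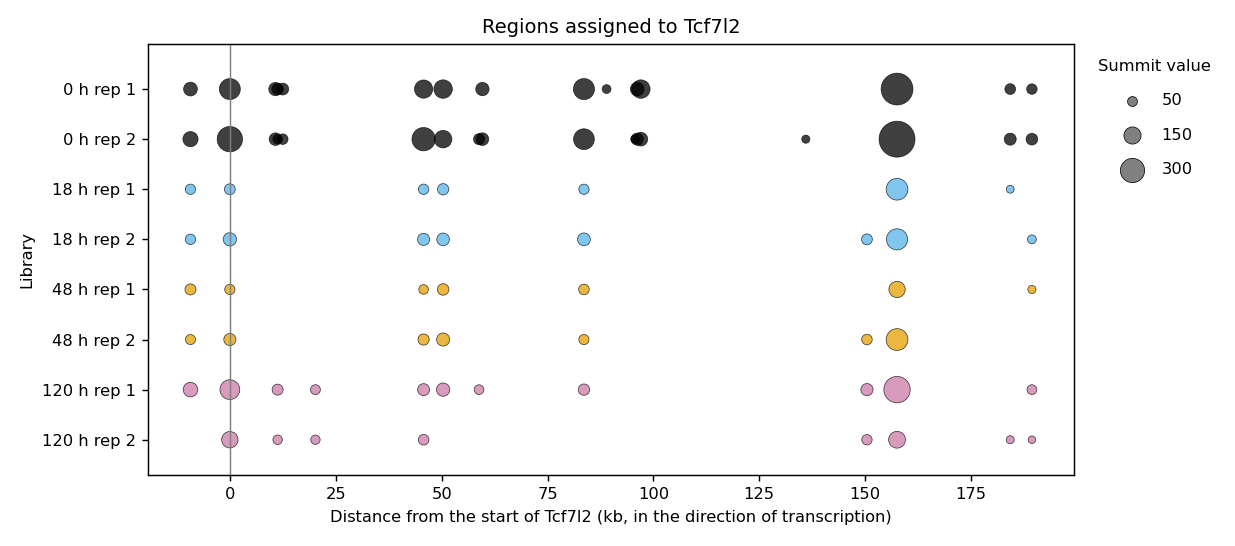
Regions assigned to Tcf7l2 by the distance of their summit from the gene's start (kb, in the direction of transcription) in each of the 8 libraries (rows), with the area of a circle in proportion to the summit value. The start (200/138 at 120 h, 225/329 at 0 h) and a region at 157518 bp have a circle in every row, while the region at 97038 bp has one in the 0 h rows only.

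To show what these regions look like, the summit base and 100 bases on each side of it are given for 8 of them, taken in turn from those that changed relative to the median, those found only at 0 h and those found only later, as the plus strand of GRCm38 (mm10). Capitals mark short forms of the sequence that TCF/LEF factors bind, on either strand: the letters CTTTGAA and, where only the end differs, the letters CTTTGAT, and further the letters CTTTGTA and, again where only the end differs, the letters CTTTGTT. The following 3 changed relative to the median, and the first pair lie over CpG islands (GC content of the window 75.1% for Znrf3 and 76.1% for Ctnnb1, 52.2% for Lef1):
Znrf3, start, chr11:5444893-5445093: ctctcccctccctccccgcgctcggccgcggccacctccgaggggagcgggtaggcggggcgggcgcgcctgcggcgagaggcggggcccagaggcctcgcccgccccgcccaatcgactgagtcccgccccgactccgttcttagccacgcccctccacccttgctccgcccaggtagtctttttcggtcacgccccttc
Ctnnb1, start, chr9:120933277-120933477: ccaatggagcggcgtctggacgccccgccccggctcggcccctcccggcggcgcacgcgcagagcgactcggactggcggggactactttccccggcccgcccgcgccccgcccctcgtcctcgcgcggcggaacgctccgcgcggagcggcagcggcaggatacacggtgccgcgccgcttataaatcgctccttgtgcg
Lef1, between genes, chr3:131225517-131225717: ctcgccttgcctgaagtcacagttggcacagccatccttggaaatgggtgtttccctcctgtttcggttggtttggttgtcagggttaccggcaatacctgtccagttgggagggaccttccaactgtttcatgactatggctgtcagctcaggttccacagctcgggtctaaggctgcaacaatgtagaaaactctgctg
The next 3 were found at 0 h only (GC content 40.8%, 43.3% and 49.3%):
Lgr4, intron, chr2:109943197-109943397: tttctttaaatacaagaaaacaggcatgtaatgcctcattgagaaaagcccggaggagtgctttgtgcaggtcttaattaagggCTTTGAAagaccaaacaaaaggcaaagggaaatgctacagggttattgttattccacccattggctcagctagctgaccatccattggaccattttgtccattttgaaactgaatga
Tcf7l2, intron, chr19:55838781-55838981: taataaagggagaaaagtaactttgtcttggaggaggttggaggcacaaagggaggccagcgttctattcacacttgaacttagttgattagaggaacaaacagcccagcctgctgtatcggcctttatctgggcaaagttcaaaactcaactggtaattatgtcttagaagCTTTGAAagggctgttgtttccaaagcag
Wnt10a, between genes, chr1:74809117-74809317: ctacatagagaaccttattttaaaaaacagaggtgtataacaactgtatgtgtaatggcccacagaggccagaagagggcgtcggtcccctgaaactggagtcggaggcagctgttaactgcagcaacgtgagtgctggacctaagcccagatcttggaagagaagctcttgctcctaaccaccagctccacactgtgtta
The last 2 were found in both libraries of 120 h and not at 0 h (GC content 49.3% and 42.3%):
Lrp6, intron, chr6:134562205-134562405: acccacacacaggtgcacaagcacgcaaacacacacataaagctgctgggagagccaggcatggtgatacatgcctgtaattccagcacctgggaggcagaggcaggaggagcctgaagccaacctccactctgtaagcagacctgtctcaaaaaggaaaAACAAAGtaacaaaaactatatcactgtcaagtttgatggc
Tcf7l2, intron, chr19:55892125-55892325: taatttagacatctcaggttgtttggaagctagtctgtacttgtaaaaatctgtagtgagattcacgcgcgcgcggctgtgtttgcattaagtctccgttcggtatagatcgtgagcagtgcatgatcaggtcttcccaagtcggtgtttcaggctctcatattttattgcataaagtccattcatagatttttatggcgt

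The letters stood once each in the Lgr4, Lrp6 and first Tcf7l2 windows, and not in the other 5. Over all Wnt regions, 43 of 235 windows (18.3%) held them, beside 17.1% of all 87144 regions. Near any gene start the shares were 9.23% of 65 Wnt windows and 6.69% of all, and farther away 21.8% of 170 and 19.6%. A match is a run of letters and not a shown binding site.

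The wider pathway was read from a list of 71 other genes (1 of them, Tiki1, matched no symbol of the table and is not analysed here) for Wnt secretion, Dishevelled, further destruction complex members, co-repressors and further inhibitors. The 70 matched genes all had a peak. Of the 69 accessible at any timepoint, 50 were so at all 4 (72.5%, beside 72.8% of all genes) and 4 at 0 h only (Csnk1e, Dkk3, Sost and Sostdc1; 5.8%, beside 12.9%). For 33 of 70 (47.1%) both 0 h libraries held more peaks than each later one, beside 36.9% of all genes. Of their 67 regions with a peak in all 8 libraries, 19 rose and 7 fell relative to the median from 0 h to 120 h (28.4% and 10.4%), beside 23% and 15.8% of all regions. On the deposited scale 0 rose and 24 fell in that comparison (0% and 35.8%), beside 0.882% and 44.8% of all regions.

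Among those genes the starts of Csnk1a1, the kinase that primes β-catenin for degradation (log2 change 1.24 ± 0.28, limma adjusted p = 0.0049), Tnks, a tankyrase that marks Axin for degradation (1.11 ± 0.23, adjusted p = 0.00328), and Tle3, a co-repressor of TCF factors (0.93 ± 0.23, adjusted p = 0.00767), rose relative to the median. So did a region 9507 bp upstream of Ror2, a receptor of Wnt5a (1.43 ± 0.35, adjusted p = 0.00786), with 119/68 at 0 h, 31 to 49 at 18 and 48 h, then 217/79 at 120 h, and one assigned to Dkkl1 that lay at the start of Ccdc155 (1.06 ± 0.24, adjusted p = 0.00533). None of these rises was called on the deposited scale, and the start of Tle3 had 316/335 at 0 h and 337/333 at 120 h. How the calls in this wider list depend on single libraries is not given here. The largest falls among the genes named here were in Prickle1, a planar cell polarity gene, 29747 bp from its start, by 1.63 ± 0.20 (adjusted p = 0.000157), and at the start of Amer1, whose product binds β-catenin and its destruction complex, by 1.60 ± 0.21 (adjusted p = 0.000238). Amer1 had 248/241 at 0 h, 50/80 at 18 h, 48/57 at 48 h, then 57/33 at 120 h, so that, unlike the starts of Csnk1a1 (282/368 at 0 h, 430/392 at 120 h) and Tnks (291 and 331, then 384 and 341), it did not return at 120 h. The Amer1 region lies on the X chromosome (chrX:95444024-95445211), and those of Csnk1a1 and Tnks lie on autosomes. The part of the chromosome in this difference was not tested. A region of Rspo2, an R-spondin gene, 34978 bp from its start, fell by 0.95 ± 0.24 (adjusted p = 0.00886).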

How the data were processed

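ATAC-seq libraries of sorted germ cells (8 libraries, 2 for each of 4 timepoints, from separate mice) were taken as deposited. Per the methods and the labels, the authors aligned paired reads to mm10 (BWA 0.7.12), removed duplicates, brought each library to 1 common read number, extended the reads and called peaks without a control (MACS2 2.1.0); no shift of reads for the transposase is stated. The deposited values are signal: coverage at the summit and mean coverage over each peak. The depth in reads is not in the files used here, so no counting interval is given. The browser tracks were not used.

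Overlapping peaks (at least 1 bp) were merged, and genes were taken from the table's gene list. Heights were compared with limma 3.58.1 on log2 summit values over the 15536 regions where all 8 libraries had a peak, as deposited and centred on library medians, with Benjamini-Hochberg adjustment (threshold 0.05). Peak numbers were compared by an exact permutation test (28 splits). GRCm38 sequence and GENCODE annotation gave windows and features at summits. Regions named by rule were the start regions that all 8 libraries share (for each member the highest), those called on the centred scale against 0 h, those found at 0 h only with the highest lower value (6 regions), and those found later only; of the other pathway genes, the 8 with the largest called change. The other start regions, the high ligand regions away from starts, the Tcf7l2 region at 157518 bp, the nearest region of Lef1 and the calls from 48 h to 120 h were named after their values were seen. Merging and fits were tested on simulated data. Alternatives covered scaling, GC, filters, peak rules, the replicate block and each library left out. Members and lists were chosen with earlier results of these data known.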

Additional observations from a re-analysis of the deposited data

How the results depend on the processing

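The counts of Wnt regions that differed in height depended most on the scale. With each library centred on its median the counts on the deposited scale went from 35 to 0 (18 h against 0 h), from 37 to 2 (48 h against 0 h) and from 10 to 4 (120 h against 48 h), and the last was 6 with the mean signal of the peak and 3 with only the libraries compared. For 120 h against 0 h the direction moved as well, from 14 lower and 0 higher as deposited to 2 lower and 9 higher when centred. On the centred scale, 120 h against 0 h gave 3 with quantile normalization in place of 11, 120 h against 48 h gave 0 with quantile normalization and 7 with an intensity trend in place of 4, and 48 h against 0 h gave 1 with only the libraries compared, 0 with a mean summit value of at least 100 and 4 with the GC trend removed in place of 2. Leaving out each library in turn gave, on the deposited scale, 16 to 36 regions for 18 h, 25 to 38 for 48 h and 4 to 20 for 120 h against 0 h, and 0 to 23 for 120 h against 48 h; on the centred scale it gave 0 to 1, 0 to 3, 3 to 11 and 0 to 5. The cause was not tested. With no scaling, the log2 changes at 120 h against 0 h of the regions of Lgr5 (-0.19), Rnf43 (-0.16), Fzd2 (-0.19), Apc (-0.21), Lrp5 (-0.04), Lef1 (-0.14) and Fzd9 (-0.23) turned below 0, as did that of Lef1 at 48 h against 0 h (-0.44).

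Of the gene counts, the 31 genes accessible at all 4 timepoints stayed within 1.5 times under every alternative run, and were 31 to 34 with a library left out. The 4 genes accessible at 0 h only became 1 with an equal number of highest peaks, 9 with a summit value of at least 50, 9 with peaks inside the gene or within 1000 bp of its start, 1 with a peak in either replicate, and 1 to 4 with a library left out. The 23 genes with more peaks in both 0 h libraries became 0 with an equal number of highest peaks, which by construction takes away the difference in peak number, and 23 to 30 with a library left out. The 84 Wnt regions with a peak in both libraries at 0 h and at no later timepoint became 5 with an equal number of highest peaks, and the 35 with no peak in any later library became 0 (an alternative chosen after seeing the data). Replicate numbers were not treated as pairs in the main fits (correlations between same-numbered libraries of -0.224 to 0.248, with 2 numbers only). Whether same-numbered libraries shared a batch was not tested. With the replicate block 120 h against 0 h gave 12 regions on the centred scale and 14 as deposited, and no count moved by over 1.5 times.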
